A study of Mus musculus with 39 samples.

Results

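The genes described here are the neural cell adhesion molecules Ncam1, L1cam and Chl1, the cadherins Cdh2 and Cdh19, and 2 intracellular proteins, the growth-associated protein Gap43 and the intermediate filament protein Gfap. The rule lists them by name, as genes of immature Schwann cells and of Remak Schwann cells, and uses no measured value, although the list was drawn up with earlier results of these data known. All 7 were among the 55573 genes listed and among the 18442 genes that passed the filter on low counts. RNA was sequenced from the endoneurium of the sciatic nerve, the inner compartment that holds axons and Schwann cells beside macrophages, fibroblasts and vessels, in C57BL/6 mice of both sexes aged 2 to 4 months. Crush was made on a single side, and the uninjured contralateral nerve is called healthy. Every mouse carried floxed leptin receptor alleles (Lepr fl/fl). Lepr-ctrl mice had no Cre, while Lepr-cKO mice (Lepr fl/fl::Dhh-Cre) carried a recombinase under control of Dhh, active in the Schwann cell lineage from embryonic stages. Nerves were taken 2 or 4 weeks post crush (wpc), from different mice at each time, so that time and cohort cannot be told apart. At 2 wpc there were 5 healthy and 5 injured Lepr-ctrl nerves with 6 healthy and 5 injured Lepr-cKO nerves. At 4 wpc each genotype gave 5 healthy and 4 injured nerves. The 39 libraries came from 22 mice, named A to V here in the order of their numbers in the labels, and both nerves were present for 17. Total counts ran from 10905806 to 45016322 per library with a median of 27752451, and the injured nerves at 4 wpc were the shallowest, at 10905806 to 25923752.

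Immature Schwann cells and Remak cells, the glia that ensheathe several thin axons without making myelin, share a set of surface molecules that myelinating Schwann cells switch off. NCAM1, L1 and CHL1 belong to the immunoglobulin superfamily and mediate contact between glia and axons. N-cadherin, encoded by Cdh2, forms calcium-dependent junctions between axons and glia, and Cdh19 is a cadherin used as a marker of the Schwann cell lineage. After nerve injury Schwann cells leave the myelinating or Remak state and become repair cells, and GAP43 and GFAP are commonly used to mark that change. Axons, whose cell bodies lie outside the sampled tissue, carry NCAM1, L1 and GAP43 protein as well.

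The loci, from GENCODE on GRCm38, were Ncam1 at chr9:49502136-49798925, L1cam at chrX:73853778-73896105, Chl1 at chr6:103510586-103750211, Cdh19 at chr1:110888326-110977584, Gap43 at chr16:42248442-42340651 and Gfap at chr11:102887336-102900912. Chl1 lies on the plus strand and these other genes on the minus strand. An antisense gene, Gm11149, covers 4.81% of the exon bases of Ncam1, and Arhgap4 shares 1.36% of those of L1cam on the same strand. The other 5 genes share no exon base with another gene.

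Promoter sequence in RefSeq (GRCm38.p6) was matched for 3 of the 7 genes, Chl1, Gfap and L1cam. The 250 bases before a start site are shown for Gfap and L1cam, since these genes moved in opposite directions in injured Lepr-ctrl nerves at 4 wpc. RefSeq lists 2 start sites for L1cam, and the window of the one farther upstream is given. Both sequences read 5′ to 3′ on the minus strand, and capitals mark a CCAAT box (CCAAT) and a SOX-type motif (ACAANG).
Gfap, chr11:102897201-102897450: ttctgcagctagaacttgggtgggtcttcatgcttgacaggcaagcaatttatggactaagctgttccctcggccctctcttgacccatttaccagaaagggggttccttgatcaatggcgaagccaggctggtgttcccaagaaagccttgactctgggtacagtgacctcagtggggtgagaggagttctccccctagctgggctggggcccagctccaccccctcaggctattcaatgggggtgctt
L1cam, chrX:73880835-73881084: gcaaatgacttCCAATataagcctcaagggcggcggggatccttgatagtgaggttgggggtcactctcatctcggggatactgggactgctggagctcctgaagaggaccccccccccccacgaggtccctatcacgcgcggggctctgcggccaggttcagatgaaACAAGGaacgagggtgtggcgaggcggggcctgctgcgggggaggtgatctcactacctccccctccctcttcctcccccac
Both strands were searched for 5 motifs. The L1cam window held the SOX letters starting 82 bases and the CCAAT box 239 bases before the start site, and 2 E-boxes (CANNTG) that do not overlap them. None of these, no AP-1 motif (TGANTCA) and no TATA box (TATAAA) was in the Gfap window. The window of Chl1, which also fell in injured Lepr-ctrl nerves at 4 wpc, lay wholly within annotated exons and is not shown. It held the SOX letters and none of the other motifs. Among 32817 promoter windows of the same length, 36.3% held ACAANG, 33.8% CCAAT, 66.2% an E-box, 6.75% an AP-1 motif and 12.4% a TATA box. These are matches of letters and not measured sites.

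Lepr, the targeted gene, was counted over its whole length, while the deletion in Lepr-cKO mice removes 1 exon in Schwann cells. Lepr stood at 53.3 ± 17.7 CPM (SD, n = 5) in injured Lepr-ctrl and 69.7 ± 33.0 CPM (n = 5) in injured Lepr-cKO nerves at 2 wpc, and at 44.6 ± 21.1 and 30.6 ± 5.23 CPM (n = 4 each) at 4 wpc. The mean was thus higher in Lepr-cKO nerves at 2 wpc and lower at 4 wpc, so these counts do not check the genotype labels. CPM are read counts scaled by the TMM-adjusted library size. None of the 4 genotype comparisons passed for Lepr, the lowest adjusted p in edgeR's quasi-likelihood test being 0.369. One library stood apart over all genes, the injured Lepr-cKO nerve of mouse D at 2 wpc. Its mean distance to the other libraries of its group was 1.16 in log2 CPM against 0.970 or less for the 38 others, and 7 skeletal muscle genes summed to 35296 CPM in it. The 7 adhesion-list genes were lower in it than the median of its group, except Cdh2, which was at the median.

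**Figure D1:**
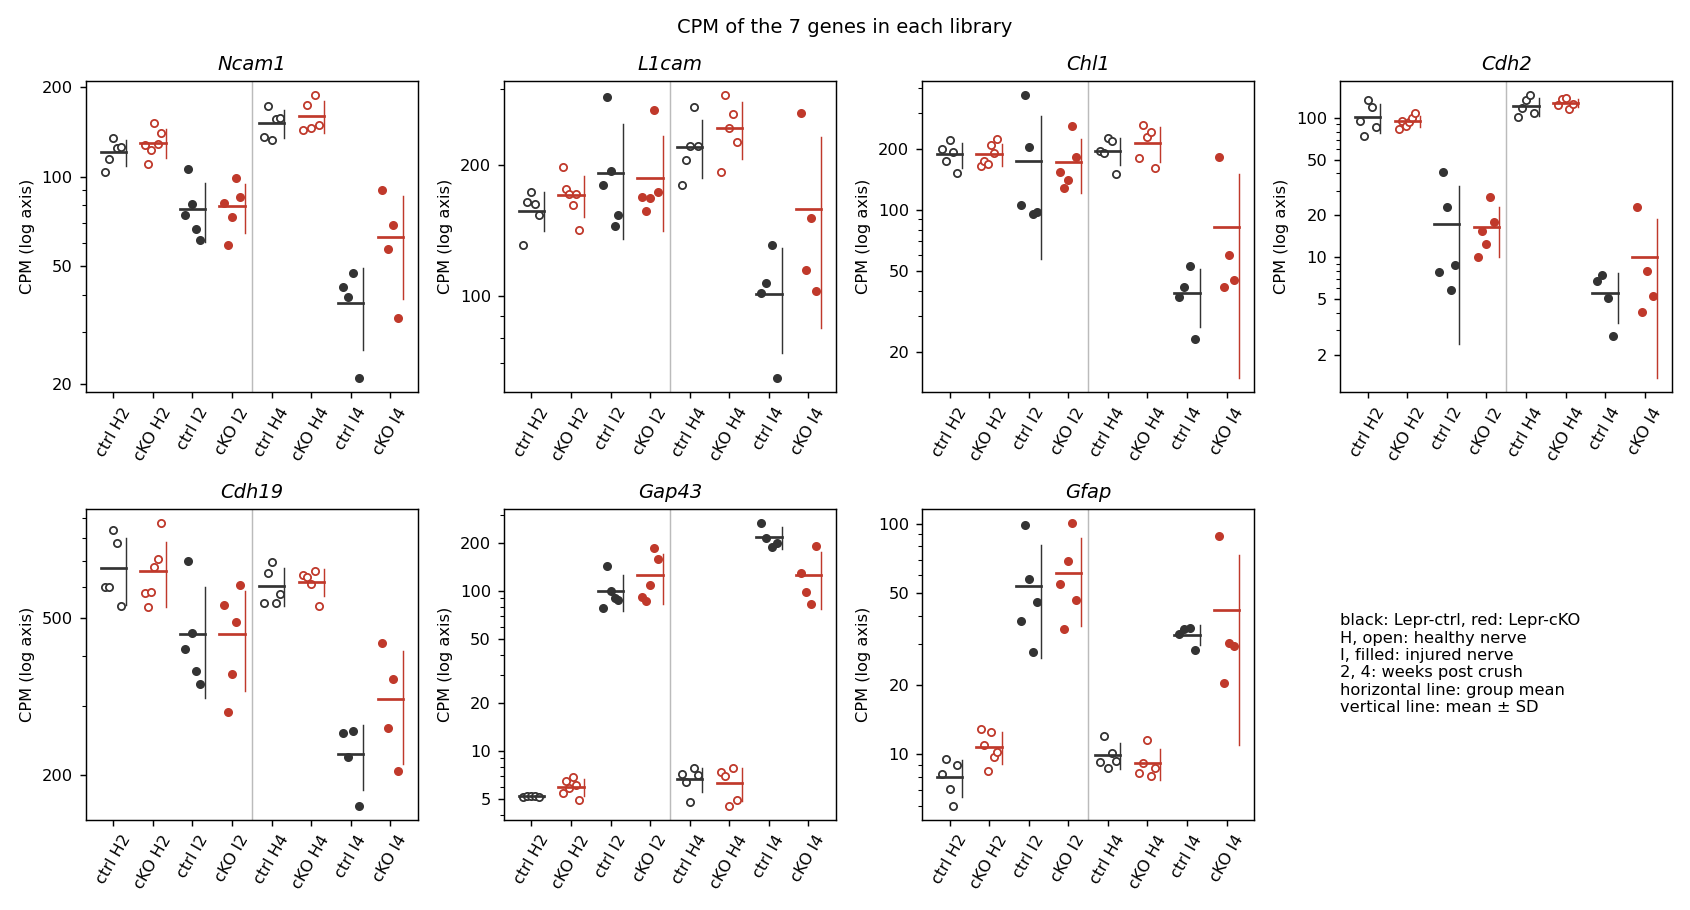
CPM on a log axis for the 7 genes in each of 39 libraries, with open circles for healthy and filled circles for injured nerves, black for Lepr-ctrl and red for Lepr-cKO, horizontal lines for group means and vertical lines for mean ± SD. Gap43 and Gfap sit higher and Cdh2 lower in every injured group than in every healthy group, while L1cam and Chl1 in injured nerves at 2 wpc overlap the healthy range.

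The first question was how crush changed these genes. The list did not move as a group: Gap43 and Gfap rose in all 4 comparisons of injured with healthy nerves, Cdh2 fell in all 4, and Ncam1, Chl1, Cdh19 and L1cam were lower mainly at 4 wpc. A gene was called at an adjusted p under 0.05 with an absolute log2 fold change above 1. In each genotype, 2 genes rose and 1 fell by this rule at 2 wpc, where 34% of all tested genes were called in Lepr-ctrl (19.8% higher, 14.3% lower) and 34.3% in Lepr-cKO (20.9% higher, 13.4% lower). In Lepr-ctrl nerves at 4 wpc, 2 rose and 5 fell, against 35.9% of all genes (20% and 15.9%), and in Lepr-cKO nerves 2 rose and 3 fell, against 27.5% (16.7% and 10.8%). By the adjusted p alone, 5, 5, 7 and 7 members passed in Lepr-ctrl and Lepr-cKO nerves at 2 wpc and then at 4 wpc, against 63.8%, 65.1%, 63.5% and 55.2% of all genes. CPM ranges of injured nerves lay wholly above the healthy ones for 2 members in each of the 4 comparisons, against 23.8%, 20.5%, 27.4% and 21% of all genes, and wholly below for 1, 2, 5 and 3, against 24.1%, 20.9%, 27.4% and 20.9%. With the mouse as a paired block, the Lepr-cKO count at 4 wpc was 6, through Cdh19 at -1.09 on the log2 scale (adjusted p = 3.22e-05 in edgeR). That fit called 4859 genes in this comparison. The median log2 fold change of the 7 genes was -0.11 and -0.13 at 2 wpc and -1.42 and -0.98 at 4 wpc for Lepr-ctrl and Lepr-cKO, beside 0.08, 0.10, 0.02 and 0.06 over all genes tested. In bulk tissue, fewer cells of a type and less RNA per cell cannot be told apart.

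**Figure D2:**
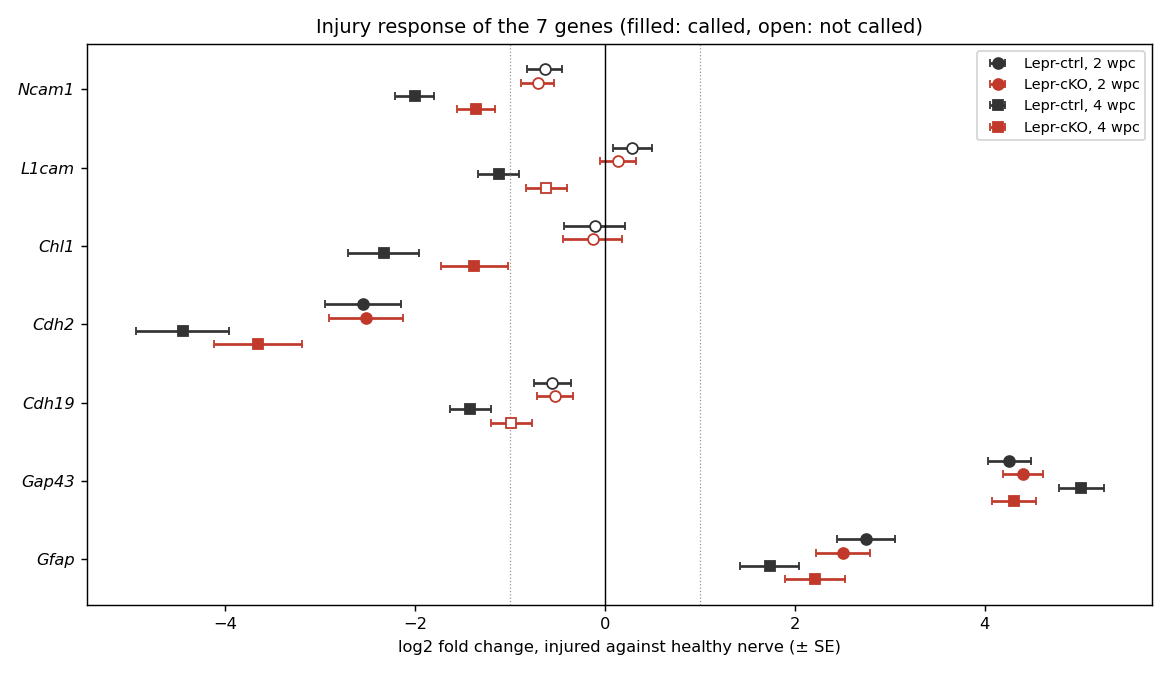
Log2 fold change of injured against healthy nerves (x axis, ± SE from edgeR) for each gene, with circles for 2 wpc, squares for 4 wpc, black for Lepr-ctrl, red for Lepr-cKO, filled where called and open where not. Gap43 lies between 4.26 and 5.02 and Cdh2 between -4.45 and -2.52, and the squares of Ncam1, L1cam, Chl1 and Cdh19 lie to the left of their circles.

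Cdh2, the N-cadherin gene at chr18:16588877-16809246 on the minus strand, changed more than the other cell surface genes of the list in each comparison. Healthy Lepr-ctrl nerves at 2 wpc stood at 95.2, 74.2, 133.9, 119.5 and 87.0 CPM, and the injured ones at 7.89, 41.1, 23.1, 5.84 and 8.76 CPM. The groups did not overlap, although the injured nerve of mouse F was far above the lowest of its group. At 4 wpc the healthy Lepr-ctrl nerves stood at 102.0, 117.3, 135.3, 146.1 and 108.0 CPM, and the injured ones at only 6.79, 7.52, 5.07 and 2.72 CPM, from 29 to 118 counts per library. The fall was 5.85-fold at 2 wpc (log2 fold change -2.55, SE 0.40, adjusted p = 1.43e-06) and 21.8-fold at 4 wpc (-4.45, SE 0.49, adjusted p = 2.21e-09). Without the injured nerve of mouse F, the log2 fold change at 2 wpc was -3.15. In Lepr-cKO nerves the fall was 5.72-fold at 2 wpc (-2.52, SE 0.39, adjusted p = 1.16e-06) and 12.6-fold at 4 wpc (-3.65, SE 0.46, adjusted p = 6.17e-08). The 4 injured Lepr-cKO nerves at 4 wpc read 22.8, 4.05, 8.02 and 5.28 CPM, the first being mouse N. Without that nerve, the Lepr-cKO log2 fold change at 4 wpc was -4.47, near the -4.45 of Lepr-ctrl. Cdh2 was lower in the injured nerve in 17 of 17 mice, by 1.70 to 5.27 on the log2 scale. Of all tested genes, 7.65% were called lower in all 4 comparisons, as Cdh2 was.

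Cdh19 was the most abundant of the 7 genes per kilobase of exon in every healthy group, with 141 to 157 CPM per kb. It ranged from 538 to 838 CPM in healthy Lepr-ctrl nerves at 2 wpc and from 340 to 698 CPM in injured ones, with overlap. At 4 wpc the 5 healthy Lepr-ctrl nerves lay at 547 to 694 CPM and the 4 injured nerves at 256, 222, 259 and 167 CPM, with no overlap. The log2 fold change was -0.56 (SE 0.20, adjusted p = 0.0142) and -0.53 (SE 0.19, adjusted p = 0.0148) at 2 wpc in Lepr-ctrl and Lepr-cKO, passing the adjusted p but not the fold minimum. At 4 wpc it was -1.42 (SE 0.22, adjusted p = 7.67e-07) and -0.98 (SE 0.21, adjusted p = 2.04e-04). The injured nerve was lower in 17 of 17 mice. So both cadherins fell, but Cdh19 fell 2.67-fold where Cdh2 fell 21.8-fold, and in injured Lepr-ctrl nerves at 4 wpc Cdh19 remained at 52.8 CPM per kb against 0.685 for Cdh2.

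Among the immunoglobulin superfamily genes, Ncam1 was lower in injured nerves at both times. It stood at 104 to 135.3 CPM in healthy and 61.1 to 105.9 CPM in injured Lepr-ctrl nerves at 2 wpc, ranges that just overlap, and at 133 to 173.01 and 21.0 to 47.6 CPM at 4 wpc, which do not. The log2 fold change was -0.64 (SE 0.18, adjusted p = 0.00312) and -0.71 (SE 0.18, adjusted p = 7.46e-04) at 2 wpc, short of the fold minimum, and -2.004 (SE 0.21, adjusted p = 3.70e-10) and -1.36 (SE 0.20, adjusted p = 8.20e-07) at 4 wpc. All 17 mice had less Ncam1 in the injured nerve.

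Chl1, the close homolog of L1, showed the widest difference between the times. At 2 wpc the healthy Lepr-ctrl nerves read 199, 174, 221, 193 and 152 CPM and the injured ones 106, 367, 204, 95.9 and 97.4 CPM. Mouse F was the highest in both nerves, and its injured nerve exceeded every other library in the series. The log2 fold changes at 2 wpc were -0.11 (SE 0.32, adjusted p = 0.781) in Lepr-ctrl and -0.13 (SE 0.31, adjusted p = 0.725) in Lepr-cKO, with 95% intervals of -0.76 to 0.54 and -0.76 to 0.50. At 4 wpc the 4 injured Lepr-ctrl nerves read 37.4, 41.8, 53.1 and 23.2 CPM, all below the 151 to 225 CPM of the healthy ones. The change was -2.33 (SE 0.37, adjusted p = 1.70e-06), a 5.04-fold fall. The injured Lepr-cKO nerves read 183, 41.7, 59.8 and 45.1 CPM, again with mouse N high and inside the healthy range of 160 to 263 CPM. Their change was -1.38 (SE 0.35, adjusted p = 0.00135), and -2.13 without mouse N.

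L1cam, the L1 gene, was called in only 1 of the 4 injury comparisons. In Lepr-ctrl nerves at 2 wpc, healthy nerves ranged from 130.97 to 173.3 CPM and injured nerves from 145 to 287 CPM, and the log2 fold change was 0.29 (SE 0.20, adjusted p = 0.205). In Lepr-cKO it was 0.14 (SE 0.19, adjusted p = 0.542). At 4 wpc the healthy Lepr-ctrl nerves read 180, 206, 222, 272 and 221 CPM and the injured nerves 102, 107, 131.3 and 64.7 CPM, without overlap. The change was -1.12 (SE 0.22, adjusted p = 3.77e-05), and without mouse U it was -0.97, under the fold minimum. In Lepr-cKO it was -0.62 (SE 0.22, adjusted p = 0.0145), passing the adjusted p alone. L1cam was lower in the injured nerve in 11 and higher in 6 of the 17 mice.

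Gap43 and Gfap, the repair markers of the list, rose at both times and in both genotypes. Gap43 was low but counted in every healthy nerve, at 4.56 to 7.90 CPM over the 21 healthy libraries, from 108 to 328 counts. The injured Lepr-ctrl nerves read 78.0, 143.1, 100.8, 90.7 and 88.5 CPM at 2 wpc and 267, 214, 188 and 201 CPM at 4 wpc, so that no injured library overlapped a healthy one and those at 4 wpc lay above all those at 2 wpc. The rise was 19.2-fold (log2 fold change 4.26, SE 0.23, adjusted p = 4.59e-17) and 32.4-fold (5.02, SE 0.24, adjusted p = 1.01e-17). The injured Lepr-cKO nerves read 91.6, 86.9, 108.6, 186.4 and 158.0 CPM at 2 wpc and 129, 99.4, 82.5 and 192 CPM at 4 wpc, which overlapped. There the rise was 21.1-fold (4.40, SE 0.21, adjusted p = 2.49e-18) and 19.8-fold (4.31, SE 0.23, adjusted p = 2.80e-16). Per kilobase, Gap43 moved from 3.43 CPM per kb in healthy Lepr-ctrl nerves at 2 wpc to 143 in injured ones at 4 wpc, where it was the highest of the 7 genes.

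Gfap stood at 5.99 to 12.8 CPM over the healthy libraries. Injured Lepr-ctrl nerves read 38.0, 98.7, 57.4, 27.9 and 45.8 CPM at 2 wpc and 33.4, 34.9, 35.5 and 28.3 CPM at 4 wpc, and injured Lepr-cKO nerves 54.6, 35.0, 68.9, 101.0 and 47.0 CPM and then 88.6, 20.4, 30.4 and 29.7 CPM. No injured library fell into the healthy range. The log2 fold change was 2.75 (SE 0.31, adjusted p = 2.20e-09) and 2.504 (SE 0.28, adjusted p = 2.82e-09) at 2 wpc, and 1.74 (SE 0.31, adjusted p = 1.29e-05) and 2.21 (SE 0.31, adjusted p = 4.45e-07) at 4 wpc, Lepr-ctrl first. Without the injured nerve of mouse N, at 88.6 CPM, the Lepr-cKO value at 4 wpc was 1.55, below that of Lepr-ctrl. Both Gap43 and Gfap were higher in the injured nerve in 17 of 17 mice. Of all tested genes, 11.8% were called higher in all 4 comparisons, as these 2 were.

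**Figure D3:**
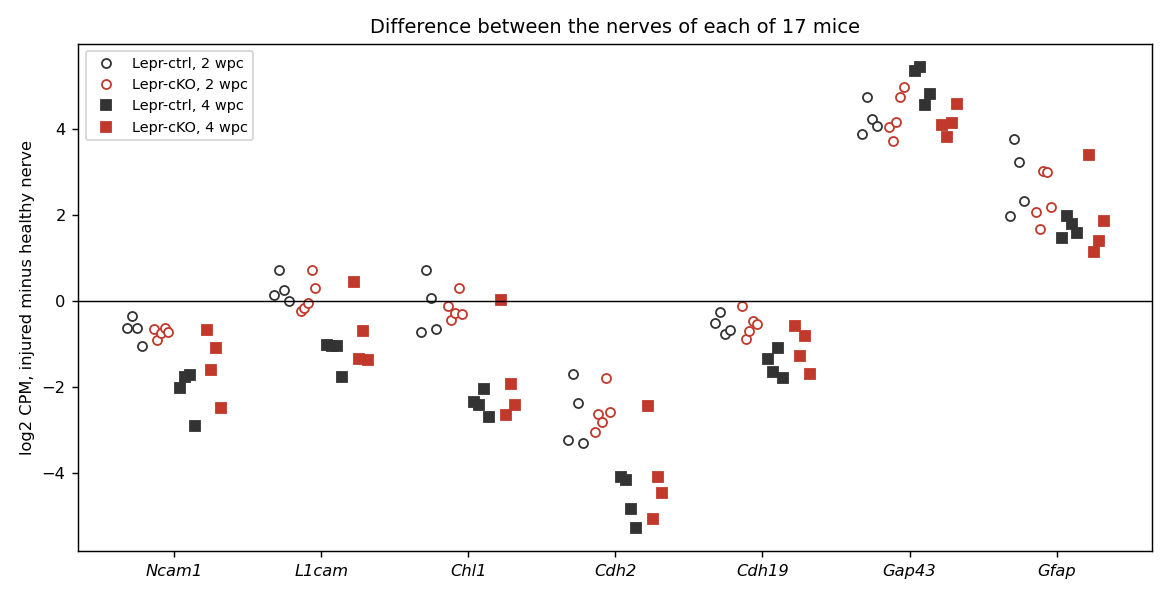
Difference in log2 CPM between the injured and the healthy nerve of each of 17 mice, with open circles for 2 wpc, filled squares for 4 wpc, black for Lepr-ctrl and red for Lepr-cKO. All points of Gap43 and Gfap lie above 0 and all points of Ncam1, Cdh2 and Cdh19 below it, while L1cam is above 0 in 6 mice and Chl1 in 4.

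Other cells of the tissue also moved between injured and healthy nerves, and their part in these changes was not tested. The Schwann cell genes Sox10, S100b and Erbb3 summed to 1976 ± 152 CPM in healthy and 987 ± 268 CPM in injured Lepr-ctrl nerves at 2 wpc (n = 5 each), and to 2294 ± 113 (n = 5) and 787 ± 142 CPM (n = 4) at 4 wpc. Sox10, a transcription factor of the whole lineage, was at log2 fold changes of -0.69 and -1.06 at 2 wpc and -1.71 and -0.80 at 4 wpc for Lepr-ctrl and Lepr-cKO, and was called in 2 wpc Lepr-cKO and 4 wpc Lepr-ctrl nerves. S100b was called lower in all 4 comparisons, at a mean log2 fold change of -1.98. Erbb3 was called in none, at a mean of -0.37, and its estimate was above 0 in Lepr-ctrl nerves at 2 wpc. Of 6 myelin genes, 5, 5, 6 and 3 were called lower in Lepr-ctrl and Lepr-cKO nerves at 2 wpc and then at 4 wpc. Of 6 macrophage genes, 4 were called higher in each genotype at 2 wpc and 6 at 4 wpc, their sum going from 184 ± 53.1 to 2750 ± 824 CPM in Lepr-ctrl nerves at 4 wpc, with Lyz2 at log2 fold changes of 3.57 to 4.35. Among 6 genes of fibroblasts and perineurial cells, only the claudin gene Cldn1 was called in all 4 comparisons, at 2.01 to 3.68. In the same order of comparisons as for myelin, 1, 1, 1 and 1 of these 6 were called higher and 2, 1, 1 and 0 lower. Their median log2 fold changes were -0.32, -0.26, 0.34 and 0.50. The endothelial gene Emcn was called higher in all 4, at 1.10 to 1.98, and Pecam1 in all but the 4 wpc Lepr-cKO comparison, where it was at 0.80. Tek and Kdr, the rest of that list, were not called in all 4, at mean log2 fold changes of 0.96 and 0.00098. The pericyte gene Pdgfrb was called lower in all 4, at -2.003 to -1.52. Rgs5 and Cspg4, the rest of the pericyte list, were not, at means of -1.63 and 0.046. The neuronal genes Rbfox3, Snap25, Nefl and Elavl3 summed to 24.4 ± 2.77 CPM in healthy and 2.57 ± 0.786 CPM in injured Lepr-ctrl nerves at 2 wpc, with Rbfox3, a marker of neuronal cell bodies, at 0.591 and 0.488 CPM. The adipocyte genes Adipoq, Plin1, Lep and Cidec summed to at most 0.226 CPM in healthy Lepr-ctrl nerves and to 0 to 72.9 CPM in injured ones, while healthy Lepr-cKO nerves reached 64.3 CPM. The muscle genes were called higher only in the 2 wpc Lepr-cKO comparison, 7 of 7, where mouse D held their counts. Leaving out that library left the same counts of 3 called genes of the 7, with log2 fold changes of 4.22 to 4.53 for Gap43 over all single omissions in that comparison.

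Other adhesion genes were taken from lists fixed for these cell surface families. Among 12 tested of 13 further immunoglobulin superfamily genes, 2 were called higher and 6 lower at 2 wpc in each genotype, none higher and 8 lower at 4 wpc in Lepr-ctrl, and 1 higher and 7 lower in Lepr-cKO. The axonal contactin gene Cntn1 was at log2 fold changes of -6.04 to -4.34, the nectin-like gene Cadm3 at -3.64 to -2.40 and Nfasc, which encodes the neurofascins of nodes and paranodes, at -2.86 to -1.91. Among 10 tested of 12 further cadherins, 4 and 6 were called higher and 2 and 2 lower at 2 wpc, and 1 and 3 higher and 4 and 2 lower at 4 wpc, Lepr-ctrl first. Cdh6 rose by 1.60 to 2.69, whereas Cdh1, the E-cadherin of myelinating Schwann cells, was at -2.65 to -1.90 and Cdh3 at -3.13 to -1.65. Of 8 catenins and linked junction proteins, 1, 1, 1 and 0 were called higher and 3, 3, 4 and 3 lower. The gene called higher, named after its values were seen, was Afdn, encoding the nectin-binding protein afadin, at 1.11, 1.32 and 1.61. Those called lower in all 4 were Vcl, encoding vinculin, at -2.57 to -1.37, Ctnna2 at -2.67 to -1.04 and Jup, encoding plakoglobin, at -1.72 to -1.03.

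Of 10 tested partners and modifiers of these adhesion molecules, 3, 3, 2 and 3 were called higher and 3, 3, 6 and 4 lower. St8sia4, one of the enzymes that add polysialic acid to NCAM1, rose by 1.22 to 1.74, and the L1 partner Nrp1 by 1.10 to 1.46. The ankyrin genes Ank2 and Ank3, whose products bind the tails of L1 family members, were at -1.98 to -1.26 and -1.54 to -1.08. Of 9 genes related to Gap43 and Gfap, Basp1, a membrane protein of the same functional class as GAP43, rose by 3.21 to 4.39, while the intermediate filament genes Nes and Prph were at -2.34 to -1.91 and -2.18 to -1.32. Of 11 other genes of immature and repair Schwann cells, 10, 10, 6 and 8 were called higher and none lower, with Olig1 at 6.53 to 8.04, Tnc, encoding tenascin C, at 3.47 to 4.67 and Runx2 at 3.20 to 4.09. Scn7a, a sodium channel gene of Remak cells, was at -1.96 to -1.14 and called in all 4 comparisons, and Itga1 was at -0.29 to 0.30 and called in none.

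The second question was whether genotype mattered. No member was called in any of the 4 comparisons of Lepr-cKO with Lepr-ctrl nerves, where 0.526% of all genes were called in injured nerves at 2 wpc, 0.455% in injured nerves at 4 wpc and 0.00542% in healthy nerves at each time. These shares depended on single libraries: the 97 genes called in injured nerves at 2 wpc became 1 without mouse D, whose nerve held the muscle counts, and the 84 called at 4 wpc ranged from 5 without mouse U to 685 without mouse T. In edgeR, 5 of the 7 had an unadjusted p under 0.05 in injured nerves at 4 wpc, as did 19.8% of all genes, and none in the other 3 comparisons, where 6.37% of all genes did in injured nerves at 2 wpc and 1.17% and 1.85% in healthy nerves at 2 and 4 wpc. DESeq2 also called none of the 7 in all 4, where it called 0.12% of all genes in injured nerves at 2 wpc and 0.876% at 4 wpc. At 2 wpc the log2 differences in injured nerves ran from -0.07 for Cdh2 to 0.33 for Gap43. At 4 wpc the estimates for the 5 cell surface genes were above 0, without a call. Chl1 differed by 1.08 (95% interval 0.34 to 1.83, adjusted p = 0.0960), Cdh2 by 0.87 (-0.07 to 1.82, adjusted p = 0.294), Ncam1 by 0.73 (0.31 to 1.15, adjusted p = 0.0624), L1cam by 0.64 (0.19 to 1.10, adjusted p = 0.105) and Cdh19 by 0.47 (0.02 to 0.92, adjusted p = 0.230). Gap43 went the other way, at -0.79 (-1.24 to -0.34, adjusted p = 0.0579), and Gfap differed by 0.36 (-0.30 to 1.02, adjusted p = 0.565). These genes missed the threshold of the edgeR test, which does not show that the genotypes were alike. Gap43 and Ncam1 each passed the adjusted p in some alternative fit with all libraries kept. They stayed under the fold minimum in every one, at -0.87 to -0.77 and 0.68 to 0.73.

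Single nerves weighed on these values. Gap43 in injured nerves at 4 wpc was 188 to 267 CPM in Lepr-ctrl and 82.5, 99.4, 129 and 192 CPM in Lepr-cKO, the last, mouse T, falling inside the Lepr-ctrl range. Without mouse T, Gap43 at -1.08 (adjusted p = 0.00324 in edgeR) and Chl1 at 1.26 (adjusted p = 0.0265) were both called. Without mouse N, the highest Lepr-cKO nerve for all 5 cell surface genes and Gfap, Chl1 differed by 0.33, Cdh2 by 0.06, Ncam1 by 0.49, L1cam by 0.28, Cdh19 by 0.27 and Gfap by -0.30. For each of these 5 cell surface genes at least 1 Lepr-cKO nerve lay within the Lepr-ctrl range. Ncam1 read 90.4, 57.0, 68.7 and 33.5 CPM in Lepr-cKO and 42.7, 39.3, 47.6 and 21.0 CPM in Lepr-ctrl nerves. The 6 myelin genes moved beside these values, at 75003, 50811, 63471 and 29515 CPM in the same order of Lepr-cKO mice (N, R, S, T) and 23799 to 32428 CPM in Lepr-ctrl. So did the Schwann cell genes, at 1832, 1072, 1289 and 705 CPM in Lepr-cKO. The macrophage genes summed to 1603 ± 337 CPM in Lepr-cKO and 2750 ± 824 CPM in Lepr-ctrl nerves (n = 4 each), with 6 of 6 estimates below 0 at a median log2 difference of -0.69 and none called. Without a call, the estimates were below 0 for 4 of 4 endothelial genes (median -0.46) and above 0 for 3 of 3 pericyte genes (median 0.66), 4 of 4 adipocyte genes (median 0.61) and all 11 other genes of immature and repair Schwann cells (median 0.46). The part of these cell types in the genotype differences was not tested. Among the related lists, only 2 genes, named here after their values were seen, were called higher in Lepr-cKO nerves at 4 wpc, Cdh3 (1.71, adjusted p = 0.0196) and Cadm4 (1.06, adjusted p = 0.0489), a nectin-like gene of myelinating Schwann cells. Cadm4 was spread from 498 to 1860 CPM in Lepr-cKO (983 ± 605) and from 337 to 572 CPM in Lepr-ctrl nerves (472 ± 104), with overlap. The difference between genotypes in the injury response was called for no member and for 0% of all genes at either time in edgeR (up to 26 genes at 4 wpc and 9 at 2 wpc with 1 library left out). In edgeR, 2 and 0 of the 7 had an unadjusted p under 0.05 at 4 and 2 wpc, against 10.8% and 4.26% of all genes. DESeq2 called no member, where it called 0.0219% of all genes at 4 wpc and 0.0109% at 2 wpc. The change of the genotype difference from 2 to 4 wpc in injured nerves was called for no member in edgeR. There 0% of all genes were called and 4 of the 7 had an unadjusted p under 0.05, against 14.9% of all genes. That 0 became 262 genes without mouse K, 246 without mouse T, 87 without mouse C and 30 or fewer without any other. Gap43 was at -1.12 there (adjusted p = 0.113 in edgeR), and it was called without mouse T (-1.43), C (-1.24) or K (-1.09). DESeq2 called Gap43 at -1.15 (adjusted p = 0.0426), where it called 0.321% of all genes.

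**Figure D4:**
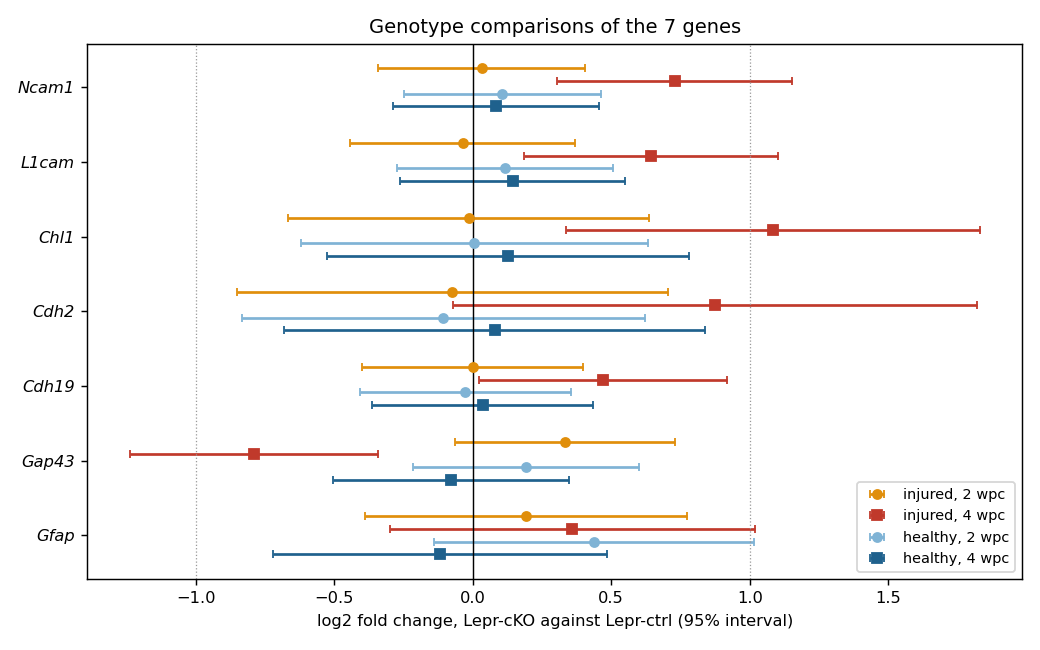
Genotype differences (log2, Lepr-cKO over Lepr-ctrl, x axis) with 95% intervals from edgeR for the 7 genes in injured and healthy nerves at 2 and 4 wpc. The red squares, injured nerves at 4 wpc, stand right of 0 for all genes but Gap43, at -0.79, and no gene was called.

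The third question was how injured nerves changed from 2 to 4 wpc. In Lepr-ctrl nerves Gap43 was called higher (1.12, SE 0.21, adjusted p = 2.16e-04) and Chl1 (-2.16, SE 0.37, adjusted p = 7.96e-05), Cdh2 (-1.64, SE 0.45, adjusted p = 0.00840), Ncam1 (-1.04, SE 0.20, adjusted p = 3.13e-04) and Cdh19 (-1.02, SE 0.21, adjusted p = 7.98e-04) lower, where 7.27% of all genes were called in edgeR (2.99% higher, 4.28% lower). L1cam, at -0.92 (adjusted p = 0.00246), passed the adjusted p alone. Of the 4 neuronal genes, Snap25 (1.24) and Nefl (2.04) were called higher at 4 wpc as well, the sum of the list going from 2.57 ± 0.786 (n = 5) to 6.69 ± 0.691 CPM (n = 4). In Lepr-cKO nerves, where Gap43 was not called, that sum went from 2.58 ± 1.29 to 6.19 ± 1.71 CPM. All 7 muscle genes were called lower in these Lepr-cKO nerves (median log2 change -10.6), mouse D having held their counts at 2 wpc. Of 6 myelin genes, 2 were called higher there (median 0.81), and 4 of 4 endothelial genes had estimates below 0 (median -0.90), 1 of them called. All 6 macrophage genes had estimates above 0 in Lepr-ctrl nerves, with 1 called and a sum going from 1762 ± 773 to 2750 ± 824 CPM. The part of axons, macrophages and the other cells named here in the changes with time was not tested. With the mouse as a random paired block in limma voom, where 6.73% of all genes were called, 3 of these 5 calls were left. Cdh2 and Cdh19 were lost there at -1.40 (adjusted p = 0.0637) and -0.99 (adjusted p = 3.40e-04). The Cdh2 call was also lost with only the compared groups in the edgeR fit (-1.66, adjusted p = 0.0873), and Cdh19 fell just short of the fold minimum, at -0.99, in DESeq2 and with the size factors of DESeq2 in edgeR. Leaving out mouse F left 2 calls, with Ncam1, Cdh2 and Cdh19 at -0.93, -1.06 and -0.83, leaving out mouse U left 3, and without mouse O Gap43 was at 0.98. Of all genes, these fits called 1207, 1127 and 1272, against 1341 with every library kept. In Lepr-cKO nerves only Chl1 was called (-1.06, SE 0.35, adjusted p = 0.0359), where 5.26% of all genes were (2.12% higher, 3.14% lower). That call was lost without an expression filter (adjusted p = 0.0818), with the compared groups alone (adjusted p = 0.247) and without mouse H, R, S or T, while without mouse N Chl1 was at -1.85 and 3 members were called, Cdh2 and Gfap being the others at -1.55 and -1.22. The fit without mouse N called 1068 of all genes, against 970 with every library kept. Gap43 in Lepr-cKO nerves was at -0.01 (SE 0.21, 95% interval -0.43 to 0.42). No member was called between the times in healthy nerves of either genotype, where 0.163% and 0.114% of all genes were. The log2 differences there ran from -0.24 to 0.51, the highest being L1cam in Lepr-cKO, and edgeR gave an unadjusted p under 0.05 for L1cam in both genotypes and for no other member, against 16% (Lepr-ctrl) and 9.86% (Lepr-cKO) of all genes.

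The injury response itself, taken relative to the healthy nerves of each cohort, also differed between the times in Lepr-ctrl nerves. It was lower at 4 than at 2 wpc by 2.22 on the log2 scale for Chl1 (SE 0.48, adjusted p = 0.00317), by 1.90 for Cdh2 (SE 0.58, adjusted p = 0.0350), by 1.41 for L1cam (SE 0.30, adjusted p = 0.00238) and by 1.37 for Ncam1 (SE 0.27, adjusted p = 0.00153), where 4.37% of all genes were called in edgeR. Of 6 fibroblast and perineurial genes, 2 were called higher and 1 lower there (median 1.03). Of 11 other immature and repair Schwann cell genes, 3 were called lower (median -1.08), as was 1 of 6 myelin genes. Called higher were 2 of 4 neuronal and 1 of 6 macrophage genes. The part of these cells was not tested. The call for Cdh2 was lost in 8 of 19 fits that left out 1 library, in edgeR without an expression filter (adjusted p = 0.0877) and in the limma fit with a random paired block (adjusted p = 0.0509). In Lepr-cKO nerves none was called, where 1.34% of all genes were. Chl1 was at -1.25 (adjusted p = 0.168) and Cdh2 at -1.14 (adjusted p = 0.332) in edgeR. With the paired block in limma Chl1 was called at -1.50 (adjusted p = 0.0419), where 1.67% of all genes were, and without the injured nerve of mouse N Chl1, Cdh2 and L1cam were called in edgeR, at -2.02, -1.98 and -1.14. The edgeR fit without that nerve called 314 of all genes, against 248 with every library kept. The 2 wpc and 4 wpc responses use different mice, while the injury and time comparisons share the injured libraries.

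How the genes varied among nerves of one group differed from how the groups differed. Across groups Gfap was high where Cdh2 was low. Within groups, as deviations of log2 CPM from group means over the 39 libraries, Gfap and Cdh2 varied together, with r = 0.72. The same r was 0.90 for Chl1 and Cdh2, 0.83 for L1cam and Chl1, 0.80 for Ncam1 and L1cam and 0.36 for Gap43 and Gfap. In injured nerves, mouse F at 2 wpc was highest in Lepr-ctrl for all 7 genes, mouse H highest in Lepr-cKO for 6, all but Cdh19, and mouse N at 4 wpc for 6, all but Gap43. These libraries share the depth and scaling that enter every value, so the r values describe these samples and carry no test.

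**Figure D5:**
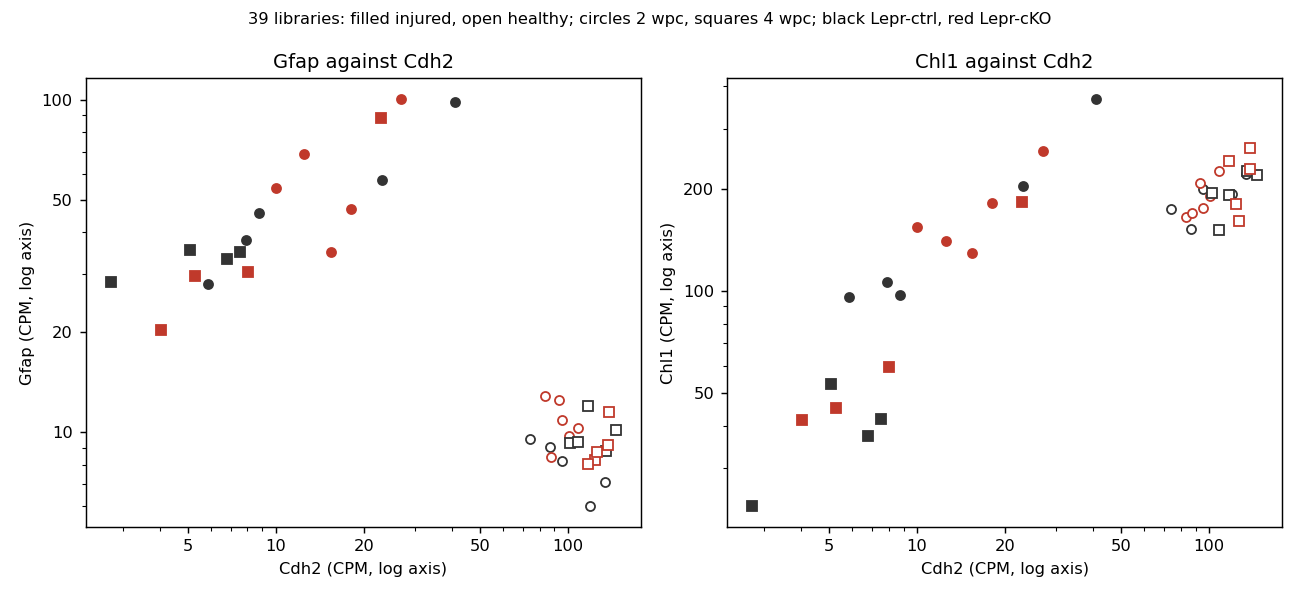
CPM of Gfap (left) and Chl1 (right) against Cdh2 on log axes for 39 libraries, with filled symbols for injured and open symbols for healthy nerves, circles for 2 wpc, squares for 4 wpc, black for Lepr-ctrl and red for Lepr-cKO. Injured and healthy nerves form separate clouds along Cdh2, at 41.1 CPM or less and 74.2 CPM or more, and within the injured nerves Gfap and Chl1 are higher where Cdh2 is higher.

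The genes whose log2 CPM followed each member most closely over the 39 libraries, by Pearson's r among 12780 genes with a mean log2 CPM above 1, were found as a description. They were Pcdh9 (a protocadherin, r = 0.98), Fads6 and Grik3 for Cdh2, Fgd3 (0.99), Stac2 and Cela1 for Gap43, and Tubb3 (a beta tubulin, 0.96), Postn (periostin, 0.95) and Ucn2 for Gfap. They were Slc35f1 (0.96), Tspan18 and Adgrg6 (a receptor required for myelination, 0.95) for Ncam1, Arhgef26 (0.95), Il1rap and Manea for Cdh19, Lclat1 (0.94), Lgi1 and Tmtc2 for Chl1, and Lhfpl2 (0.89), Mrgprf and Nid2 for L1cam. The points fall into healthy and injured clusters, which any gene with a strong injury response shares. Over the 8 group means, 1 of these 21 genes, Ucn2 for Gfap, stayed among the closest 3, and the Remak gene Scn7a came first for Cdh2 (0.999).

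The order of the 8 group means separated the genes further. For Ncam1 and Cdh2 the 4 healthy groups came above the 4 injured ones, with no overlap between the lowest healthy and the highest injured group for Cdh2 (94.8 ± 8.90 against 17.3 ± 14.96 CPM) or between neighbours at that border for Ncam1 (121 ± 12.1 against 79.6 ± 14.9 CPM). All other neighbours in these 2 orders overlapped. For Cdh19 and Chl1 the order was the same in kind, but every pair of neighbours overlapped. L1cam had no such border: its highest mean was in healthy Lepr-cKO nerves at 4 wpc (243 ± 36.6 CPM) and its lowest in injured Lepr-ctrl nerves at 4 wpc (101 ± 27.5 CPM), and all neighbours overlapped. Gap43 and Gfap had every injured group above every healthy one, without overlap at the border, and Gap43 in injured Lepr-ctrl nerves at 4 wpc (217 ± 34.5 CPM) came first with no overlap with the next group, injured Lepr-cKO nerves at 2 wpc (126.3 ± 43.8 CPM).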

How the data were processed

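The authors prepared unstranded libraries from endoneurial RNA, sequenced single reads, aligned them to GRCm38 with STAR 2.5 and deposited raw read counts per Ensembl gene made with featureCounts 1.5.0-p1 (tool names and versions from the submitters' processing notes). The strand and multimapping settings are not given in the sources used here. The 7 genes and all lists were chosen with earlier results of these data known. Counts of 39 libraries were fitted together in edgeR 4.0.16 (R 4.3.3) with TMM scaling and the quasi-likelihood test, over 18442 genes that passed edgeR's expression filter (minimum count 10, minimum total 15). P-values were adjusted by Benjamini-Hochberg over all of these genes, and a call needed both an adjusted p under 0.05 and a log2 fold change beyond 1 in either direction. Log2 CPM used a prior count of 2. Other genes were named where called in all 4 injury comparisons with the largest mean change, up to 3 rising and 3 falling per list, with every gene of lists of 4 or fewer open to naming. Labels tie both nerves of 17 mice, and their deviations from group means over 5000 genes correlated at -0.0849 to 0.277, above 0.1 in 10 of 17. Alternatives used DESeq2 1.42.0, limma 3.58.1, other scalings, filters, a sex term, paired blocks and omission of single libraries. No library pair looked like a duplicate. P-values of the main fit measure the spread between libraries within groups, and that fit treats both nerves of a mouse as independent. The depth of injured 4 wpc nerves limits genes at low counts such as Cdh2. The procedure was tested on simulated data.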

Additional observations from a re-analysis of the deposited data

Results flagged for a closer look

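A test for a single library far from the others was run on 56 sets, each 1 gene in 1 group, and 3 sets passed Dixon's 95% limit, where chance gives about 1 in 20. In injured Lepr-cKO nerves at 2 wpc, L1cam was 268.6 CPM in mouse H against 173.9 CPM in the next. In injured Lepr-cKO nerves at 4 wpc, mouse N stood apart for Chl1, at 183.0 CPM against 59.8 CPM in the next nerve, and for Gfap, at 88.6 against 30.4 CPM. The same nerve had the highest myelin gene sum of its group, 75003 CPM, and whether the values are related was not tested.

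The injury response differed between the times in Lepr-ctrl nerves for 4 genes by the test of the difference itself. The log2 fold change at 4 wpc minus that at 2 wpc was -1.41 for L1cam, -2.22 for Chl1, -1.37 for Ncam1 and -1.90 for Cdh2, in edgeR. The mice of the 2 times were different cohorts, which cannot be told apart from time.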

How the results depend on the processing

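Injury calls for Gap43, Gfap and Cdh2 were made under every alternative run, and the injury counts with 1 library left out ranged from 3 to 3 at 2 wpc in both genotypes, 6 to 7 in Lepr-ctrl and 5 to 6 in Lepr-cKO nerves at 4 wpc. With the adjusted p alone, 5 members passed in Lepr-ctrl and 5 in Lepr-cKO at 2 wpc. The replicate block of paired nerves gave 3, 3, 7 and 6 in edgeR, and as a random term in limma voom 3 calls between injured times in Lepr-ctrl and 1 for the change in response in Lepr-cKO nerves, and it changed no other count by over 1.5 times. In edgeR that block called 5798, 5901, 6582 and 4859 of all genes in the same injury comparisons. The call in Lepr-cKO nerves between times became 0 without an expression filter and 0 when only the compared groups were fitted, and DESeq2 called 1 member in the change of genotype difference with time. With 1 library left out, counts ranged from 0 to 2 for genotype at 4 wpc, 0 to 1 for its change with time, 2 to 6 and 0 to 3 between injured times in Lepr-ctrl and Lepr-cKO, and 0 to 3 for the change in response in Lepr-cKO nerves. The causes were not tested.

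Directions turned for differences that were not called, among them the Cdh2 genotype difference in response at 4 wpc, which was 0.79 with all libraries. In injured nerves at 2 wpc the genotype difference of Chl1 became 0.0095 without mitochondrial genes, 0.0017 without a filter, 0.014 with the compared groups alone and 0.18 with the random paired block. That of Cdh2 became 0.017 with a sex term and 0.16 with the block, and that of L1cam 0.00018 with the block, which also moved the change with time for Gfap to -0.073. With 1 library left out, the 2 wpc differences ranged from -0.12 to 0.21 for Cdh19, -0.32 to 0.55 for Cdh2, -0.21 to 0.47 for Chl1, -0.062 to 0.54 for Gfap, -0.20 to 0.17 for L1cam and -0.059 to 0.18 for Ncam1. Injury changes at 2 wpc ranged from -0.57 to 0.053 for Chl1 in Lepr-ctrl and -0.029 to 0.21 for L1cam in Lepr-cKO. At 4 wpc, Gfap ranged from -0.30 to 0.56 for genotype, and the genotype difference in response from -0.0070 to 1.04 for Cdh2 and -0.17 to 0.69 for Gfap. Gap43 in Lepr-cKO ranged from -0.33 to 0.18 between injured times and -0.41 to 0.088 for the change in response, and Gfap from -0.50 to 0.42 for the change of genotype difference. Depth limits Cdh2 in injured Lepr-ctrl nerves at 4 wpc, which rests on 29 to 118 counts per library.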
